A study of Mus musculus with 6 samples.

Results

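Interferon-inducible GTPases are proteins that cells make in large amounts after contact with interferons, above all interferon gamma. Here 7 of their genes were followed in mouse ovarian tumours, the immunity-related GTPase genes Iigp1, Irgm1, Irgm2 and Igtp and the guanylate-binding protein genes Gbp2, Gbp3 and Gbp7. The genes were chosen by name with measured values of the same comparison in view, since Iigp1 was known to lie higher after drug treatment. Their differences between the groups are therefore given as a description, with no test. Each of the 7 genes had a value in the deposited table of 16344 genes.

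The tumours grew in syngeneic mice after intraperitoneal injection of the murine line 60577, a transplantable model of high-grade serous ovarian cancer. They were left for 21 days to establish, and the mice then had 3 weekly cycles of carboplatin, a platinum drug that crosslinks DNA. The AZD7507 group (3 tumours) next received AZD7507, an inhibitor of the receptor CSF1R, by daily gavage for 84 days, and the other group (3 tumours) is labelled Vehicle. The protocol text is the same for both groups, so carboplatin was taken as common to them. All tumours were taken at the humane endpoint, and the labels give no day of collection, age, sex or mouse strain. Every tumour came from 1 transplanted line, and the host cells within it are those of the recipient mice. The design text does not tie a tumour to an animal, so the SDs given here measure the spread between these tumours. Each SE is from limma, which draws the variance of a gene toward a value fitted over all genes. It can therefore be smaller than the SDs beside it imply.

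The family works inside the cell. Immunity-related GTPases gather on the vacuoles of parasites and bacteria. The effector class, with Iigp1 (Irga6), helps to break the vacuole membrane, while the regulators Irgm1, Irgm2 and Igtp (Irgm3) hold the effectors inactive on the cell's own membranes. Guanylate-binding proteins coat bacteria and vacuoles and help to release microbial material to inflammasomes. Interferon gamma acts through its receptor and the kinases JAK1 and JAK2. Promoters of its target genes often hold a gamma-activated site (GAS) or an interferon-stimulated response element (ISRE), to which IRF1 binds. Macrophages make these proteins strongly, but epithelial and stromal cells also make them after interferon.

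Values are log2 RPKM, that is read numbers divided by the length of the gene and the size of the library, on a log2 scale, which the authors normalized with cqn. Being scaled by length, they allow levels to be compared between genes. The depth of the libraries is unknown because no counts were used, and each SD rests only on the 3 tumours of its group. Library medians were 2.32 in each case. Vehicle 2 and AZD7507 2 stood apart in pancreatic acinar genes, whose mean log2 RPKM over 11 measured markers was 9.00 and 9.15 there and -3.08 to -0.25 in the other libraries. Acinar transcripts held 2.92% and 3.22% of the RPKM total of these libraries and at most 0.0063% elsewhere. The drug target Csf1r was at 4.97 ± 0.45 (SD, n = 3) with vehicle and 2.35 ± 0.56 (SD, n = 3) with AZD7507. Of the 8 epithelial tumour markers Wt1 lay between 6.13 and 6.72 and Epcam between 2.26 and 4.46, whereas Pax8, a marker of Müllerian epithelium, lay between -3.89 and -2.09 and so was close to absent.

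The sequences just upstream of the RefSeq starts are shown because they carry the letters that interferon-activated factors are known to bind. RefSeq promoter windows of GRCm38.p6 were found for 6 of the 7 genes, all but Iigp1. The motif searched was GAAANNGAAA, the repeated core of the ISRE, on either strand, where it reads TTTCNNTTTC on the other one, within 250 bases upstream of the RefSeq start. It occurred in 6 of 6 windows, against 2.98% of all 32851 promoter windows (978). Its matches are in capitals below, each sequence reading 5′ to 3′ on the strand of the gene.
Irgm1, chr11:48871421-48871520, minus strand: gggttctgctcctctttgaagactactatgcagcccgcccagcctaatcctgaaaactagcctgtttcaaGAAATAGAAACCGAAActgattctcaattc
Irgm2, chr11:58214877-58214976, plus strand: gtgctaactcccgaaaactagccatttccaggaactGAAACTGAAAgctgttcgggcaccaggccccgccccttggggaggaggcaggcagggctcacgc
Igtp, chr11:58199456-58199555, plus strand: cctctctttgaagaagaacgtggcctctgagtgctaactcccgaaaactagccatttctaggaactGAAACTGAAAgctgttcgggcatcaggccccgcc
Gbp2, chr3:142620584-142620613, plus strand: ccagttaggaactcttttagTTTCACTTTC
Gbp3, chr3:142559926-142560025, plus strand: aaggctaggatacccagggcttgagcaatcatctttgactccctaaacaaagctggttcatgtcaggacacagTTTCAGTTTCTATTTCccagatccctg
Gbp7, chr3:142530236-142530335, plus strand: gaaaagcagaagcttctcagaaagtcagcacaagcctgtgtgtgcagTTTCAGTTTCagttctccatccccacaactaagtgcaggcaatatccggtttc

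In each window the match lay within the last 64 bases before the start. It began 64 bases upstream in Irgm2, 59 in Gbp2, 53 in Gbp7 and 34 in Igtp. Irgm1 held 2 overlapping matches beginning 30 and 24 bases upstream, and Gbp3 held 2 overlapping matches beginning 45 and 39 bases upstream. GENCODE M21 places some of these stretches inside a gene. The Gbp2 match falls in the first exon of the GENCODE model, which starts upstream of the RefSeq start, so a shorter stretch is shown. The Irgm1 stretch lies in an exon of a longer noncoding Irgm1 transcript, and the Irgm2 stretch lies within the gene, just upstream of its 2 shorter transcripts and far downstream of the start of the longest. The core of the GAS, TTCNNNGAA, reads the same on both strands and was present in 3 of 6 windows (Irgm2, Igtp and Gbp7), against 7.02% of all windows (2306). Igtp and Irgm2 share most of the printed sequence. The 70 bases before the Igtp start matched the stretch from 100 to 31 bases before the Irgm2 start at 68 of 70 positions, without gaps. A match in such a window describes its letters and says nothing of binding in these tumours.

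All 7 genes had a higher mean with AZD7507 than with vehicle, as did 54.5% of all genes. Mean differences on the log2 RPKM scale ran from 0.28 in Gbp7 to 1.71 in Iigp1, with a median of 0.75, against a median of 0.025 over all 16344 genes. For 6 of the 7 genes every AZD7507 tumour lay above every vehicle tumour, a pattern that 7.34% of all genes showed in this direction and 8.02% in the other. None of the 7 was among the genes that limma called at a Benjamini-Hochberg adjusted p under 0.05, which were 0.0184% of all genes upward (3) and 0.337% downward (55). At an unadjusted p under 0.05 limma had 541 higher and 898 lower genes over the table. Nothing is read from these shares for the 7 genes, because the same comparison guided their choice. In whole tumour RNA, more cells of a type and more RNA per cell cannot be told apart.

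**Figure D1:**
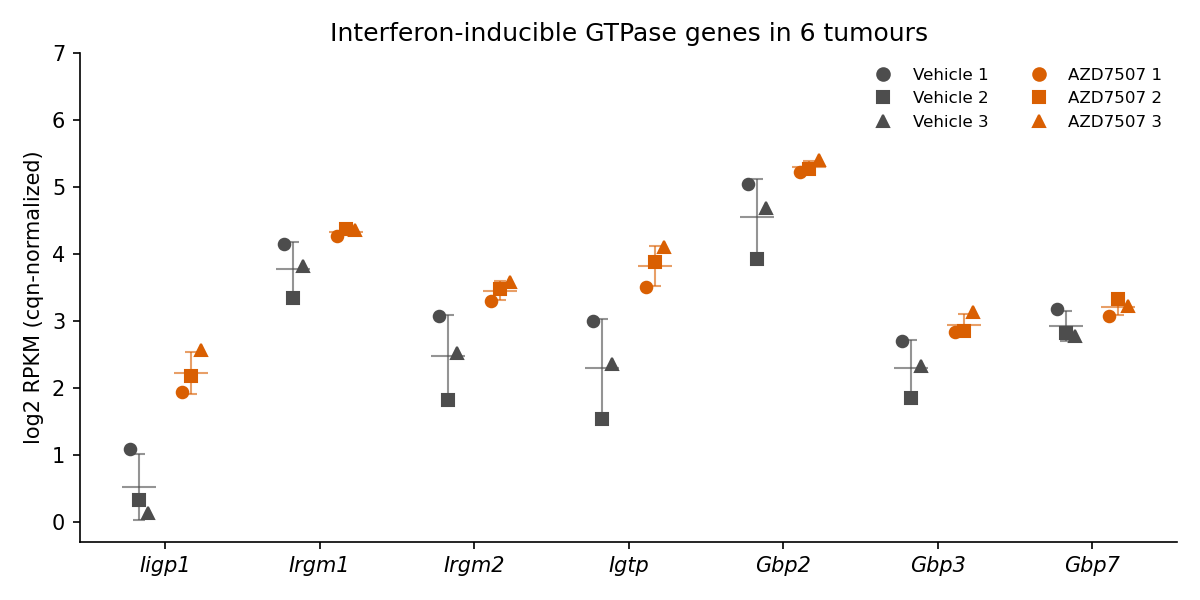
Log2 RPKM (vertical axis) of the 7 GTPase genes in each of 6 tumours, with grey symbols for vehicle, orange for AZD7507, and lines for the group mean and SD (n = 3). In 6 genes the AZD7507 symbols sit above all vehicle symbols, and in Gbp7 the groups overlap.

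Among the effectors, Iigp1 is the gene of this set with the widest difference and the lowest level. It was at 1.08, 0.33 and 0.14 in Vehicle 1, 2 and 3 and at 1.94, 2.17 and 2.56 in AZD7507 1, 2 and 3. The groups did not overlap, and the lowest AZD7507 tumour was 0.86 above the highest vehicle tumour. The means were 0.52 ± 0.50 (SD, n = 3) and 2.22 ± 0.31 (SD, n = 3), a difference of 1.71 (SE 0.28) or 3.26-fold. This was the 4th largest upward difference in the table, at a mean level in its lower part (percentile 32.5 of all genes).

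The regulators of the immunity-related class, which keep the effectors off host membranes, differed in size. Igtp was at 3.00, 1.54 and 2.35 in the 3 vehicle tumours and at 3.51, 3.88 and 4.10 in the 3 AZD7507 tumours. Vehicle 2 was the lowest and all drug-treated tumours were above Vehicle 1, the highest of the vehicle group. The difference was 1.53 (SE 0.35), or 2.89-fold, between means of 2.29 ± 0.73 (SD, n = 3) and 3.83 ± 0.30 (SD, n = 3).

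Irgm2, whose product acts at the Golgi and on vacuoles, was at 3.07, 1.82 and 2.52 with vehicle and at 3.30, 3.48 and 3.58 with AZD7507. Here too Vehicle 2 was lowest, and the groups were separated by a narrower gap. The Irgm2 means were 2.47 ± 0.62 (SD, n = 3) and 3.45 ± 0.14 (SD, n = 3), a difference of 0.98 (SE 0.29) or 1.98-fold. Irgm1, which is also needed for the survival of interferon-activated lymphocytes and macrophages, was at 4.15, 3.34 and 3.82 with vehicle and at 4.27, 4.38 and 4.36 with AZD7507. Its AZD7507 tumours were almost level with each other, and Vehicle 1 came within 0.12 of the lowest of them. Irgm1 differed by 0.57 (SE 0.20), or 1.48-fold, between 3.77 ± 0.41 (SD, n = 3) and 4.33 ± 0.057 (SD, n = 3).

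Gbp2 had the highest level among the guanylate-binding genes, at percentile 92.8 of all genes. It was at 5.04, 3.92 and 4.68 with vehicle and at 5.22, 5.27 and 5.40 with AZD7507. The groups did not overlap, and the vehicle tumours were spread more widely than the treated ones. Gbp2 differed by 0.75 (SE 0.26), or 1.68-fold, between 4.55 ± 0.57 (SD, n = 3) and 5.30 ± 0.09 (SD, n = 3).

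Gbp3 lies between Gbp7 and Gbp2 on the chromosome and followed Gbp2 at a lower level. It was at 2.70, 1.86 and 2.33 with vehicle and at 2.83, 2.85 and 3.13 with AZD7507, with no overlap. The Gbp3 difference was 0.64 (SE 0.22), or 1.56-fold, between 2.30 ± 0.42 (SD, n = 3) and 2.93 ± 0.17 (SD, n = 3). Gbp7, whose product takes part in oxidative and autophagic killing of microbes in macrophages, was at 3.18, 2.82 and 2.77 with vehicle and at 3.08, 3.32 and 3.23 with AZD7507. Vehicle 1 was above AZD7507 1, so the groups overlapped. Gbp7 had the smallest difference of the 7, at 0.28 (SE 0.14) or 1.22-fold, between 2.92 ± 0.22 (SD, n = 3) and 3.21 ± 0.12 (SD, n = 3).

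The 7 genes ordered the tumours in similar ways, and 4 of them (Irgm2, Igtp, Gbp2 and Gbp3) in the same way. Vehicle 1 was the highest vehicle tumour in 7 of 7 genes, and AZD7507 1 the lowest of its group in 7 of 7. Vehicle 2 was the lowest of all 6 tumours in 5 genes and Vehicle 3 in the other 2, Iigp1 and Gbp7. AZD7507 3 was the highest in 5 genes and AZD7507 2 in Irgm1 and Gbp7. The mean log2 RPKM over the 7 genes was 3.17, 2.23 and 2.66 in Vehicle 1, 2 and 3 and 3.45, 3.62 and 3.76 in AZD7507 1, 2 and 3. Their summed level was 43.7 to 84.7 RPKM with vehicle and 97.3 to 116 RPKM with AZD7507. The SD was smaller in the AZD7507 group for 7 of 7 genes, as it was for 60.7% of all genes.

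Vehicle 2, which is 1 of the 2 acinar-rich libraries, carried much of the difference in several genes. Without it the median difference of the 7 genes was 0.44 in place of 0.75, and without Vehicle 1 it was 0.99. Without Vehicle 2 the difference was 0.35 for Irgm1, 0.44 for Gbp2, 0.42 for Gbp3, 0.66 for Irgm2 and 1.15 for Igtp. Iigp1 and Gbp7 moved little, to 1.61 and 0.23. Without both acinar-rich libraries the differences were 1.64 for Iigp1, 1.13 for Igtp, 0.64 for Irgm2, 0.46 for Gbp3, 0.45 for Gbp2, 0.33 for Irgm1 and 0.18 for Gbp7, with a median of 0.46. All 7 genes also had a higher mean with AZD7507 after quantile normalization or median centring. These settings could hardly change the values, because the libraries already shared an upper quartile of 3.52 and a maximum of 10.16. The higher mean was kept in all 7 when each library was left out in turn and when both acinar-rich libraries were left out. Groups did not overlap for 6 or 7 genes in each of these smaller sets, but with 2 vehicle tumours that is easier to reach: without Vehicle 2 the pattern held for 17.7% of all genes, and without both acinar-rich libraries for 26.6%.

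Levels within a tumour also changed their order. Gbp2 was above Irgm1, and Irgm1 above Gbp7, in 6 of 6 tumours, and Iigp1 was the lowest gene throughout, below Gbp3 in 6 of 6. Igtp moved from rank 6 of the group means with vehicle to rank 3 with AZD7507. Its neighbour Irgm2 stood at rank 4 in both. Igtp minus Irgm2 was -0.071, -0.28 and -0.17 in Vehicle 1, 2 and 3 and 0.21, 0.40 and 0.52 in AZD7507 1, 2 and 3, so Igtp was the lower gene of the pair in each vehicle tumour and the higher one in each AZD7507 tumour. The group means of that gap were -0.17 ± 0.11 (SD, n = 3) and 0.38 ± 0.16 (SD, n = 3). Iigp1 minus Irgm1 was -3.07, -3.00 and -3.68 with vehicle and -2.33, -2.20 and -1.80 with AZD7507, a narrower gap in every treated tumour. Gbp2 minus Gbp3 stayed between 2.07 and 2.42 in all 6 tumours. In the vehicle group Gbp3 was not separated from Irgm2 or Igtp beyond their spread, with means of 2.30, 2.47 and 2.29, and it was neither the higher nor the lower gene of either pair in all 3 tumours. In the AZD7507 group Gbp7 and Irgm2 were close, at 3.21 and 3.45, and Irgm2 was the higher one in each of the 3 tumours.

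The genes sit in clusters with relatives, by the GENCODE M21 annotation of GRCm38, and each is protein coding. Gbp7 (142530342 to 142550149), Gbp3 (142560026 to 142573209) and Gbp2 (142620602 to 142638008) lie on the plus strand of chromosome 3 within 108 kb. On chromosome 11, Irgm1 (48861968 to 48871683) is on the minus strand, and Igtp (58199556 to 58207591) and Irgm2 (58199618 to 58222782) overlap on the plus strand. Their annotated exons share 162 bases, from 58199618 to 58199779, out of 2022 exonic bases in Igtp and 3690 in Irgm2. How reads in that stretch were assigned is not given in the sources used here, so the values of both genes carry that uncertainty. Small RNA gene Mir6381 lies antisense within Gbp2, and the pseudogene Gm43802 lies within Gbp7.

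No measured neighbour outside the GTPase families passed the test. Kyat3, next to Gbp2, differed by 0.12 (limma adjusted p 0.93) and Trim7, next to Irgm1, by -0.40 (limma adjusted p 0.90). Zfp692, next to Irgm2, differed by -0.14 (limma adjusted p 0.82), and Smim3, next to Iigp1, by 0.10 (limma adjusted p 0.93). The remaining neighbours belong to the GTPase families and are described next.

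Of 25 other genes of the same and related GTPase families, 22 had a value, and none was found for Gm12185, Gm4841 and Irgc1. None of the 22 passed in limma over all genes (adjusted p 0.068 to 0.96), and at an unadjusted p under 0.05 there were 5 higher and 3 lower. Groups did not overlap for 5 genes upward (Ifi47, Tgtp1, Gm12250, F830016B08Rik and Gbp6) and 3 downward, beside the table's 7.34% and 8.02%. The mean was above 0 for 16 and below 0 for 6, with a median difference of 0.43. Without Vehicle 2 the median was 0.017, with 13 above 0, and without both acinar-rich libraries it was 0.043. In 13 of the 22 genes Vehicle 2 was the lowest tumour.

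Tgtp2 and Gm12250, of the immunity-related class on chromosome 11, had the largest upward differences among these relatives. Tgtp2 (Irgb6), an effector loaded early on parasite vacuoles, was at 2.98, 1.33 and 1.68 with vehicle and at 2.92, 3.29 and 3.52 with AZD7507. It differed by 1.25 (SE 0.41), with a limma adjusted p of 0.41. Gm12250, next to Igtp and typed as a processed pseudogene in GENCODE M21, was at 2.44, 0.99 and 1.59 and at 2.79, 2.58 and 3.33, so it differed by 1.23 (SE 0.37), with a limma adjusted p of 0.35. Vehicle 1 exceeded AZD7507 1 in Tgtp2, and the groups did not overlap in Gm12250. Ifi47 (Irgd), another effector, was at 2.23, 1.74 and 2.10 and at 2.62, 2.78 and 2.63, and differed by 0.65 (SE 0.15), with a limma adjusted p of 0.20. Tgtp1, a close copy of Tgtp2 with which it may share reads, differed by 0.74 (limma adjusted p 0.44) at levels near 0. Without Vehicle 2 these differences were 0.92 for Tgtp2, 0.89 for Gm12250, 0.62 for Tgtp1 and 0.51 for Ifi47. F830016B08Rik, next to Iigp1, differed by 1.02 (limma adjusted p 0.22) and by 1.03 without Vehicle 2, and Gm4951 in the same cluster by 0.39.

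Guanylate-binding genes outside the 7 had smaller differences without Vehicle 2, as Gbp2 and Gbp3 did. The differences were 0.80 for Gbp6, 0.78 for Gbp11, 0.65 for Gbp8, 0.50 for Gbp4, 0.44 for Gbp10 and 0.40 for Gbp9 in the chromosome 5 cluster, and 0.49 for Gbp2b and 0.41 for Gbp5 on chromosome 3. Without Vehicle 2 the chromosome 5 genes were at 0.52 for Gbp6, 0.10 for Gbp4, 0.04 for Gbp11, 0.02 for Gbp8, -0.01 for Gbp10 and -0.11 for Gbp9. On chromosome 3, Gbp5 was then at 0.13 and Gbp2b at 0.0029. Gbp6 then had the largest of these differences, at levels that were all at or below -0.71. These genes resemble each other in sequence, and reads may have been divided between them.

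Other relatives lay near or below 0. Gvin1, a giant GTPase, differed by 0.10, Irgq by 0.05, Gm4070 by -0.13 and Mx2 by -0.20. Mx1, an antiviral GTPase induced by type I interferon, differed by -1.19 (SE 0.55, limma adjusted p 0.61). On chromosome 11 the genes 9930111J21Rik1 and 9930111J21Rik2 differed by -1.10 (limma adjusted p 0.39) and -0.59 (limma adjusted p 0.18). Gm5431, the gene next to Irgm1, was at -0.46, -0.63 and -0.40 with vehicle and at -2.25, -2.00 and -2.44 with AZD7507. Its groups were far apart in the direction opposite to Irgm1, at levels under 1 RPKM. Gm5431 differed by -1.73 (SE 0.28), did not pass (limma adjusted p 0.068), and passed with a constant variance prior (limma adjusted p 0.030) and with array weights (limma adjusted p 0.018).

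**Figure D2:**
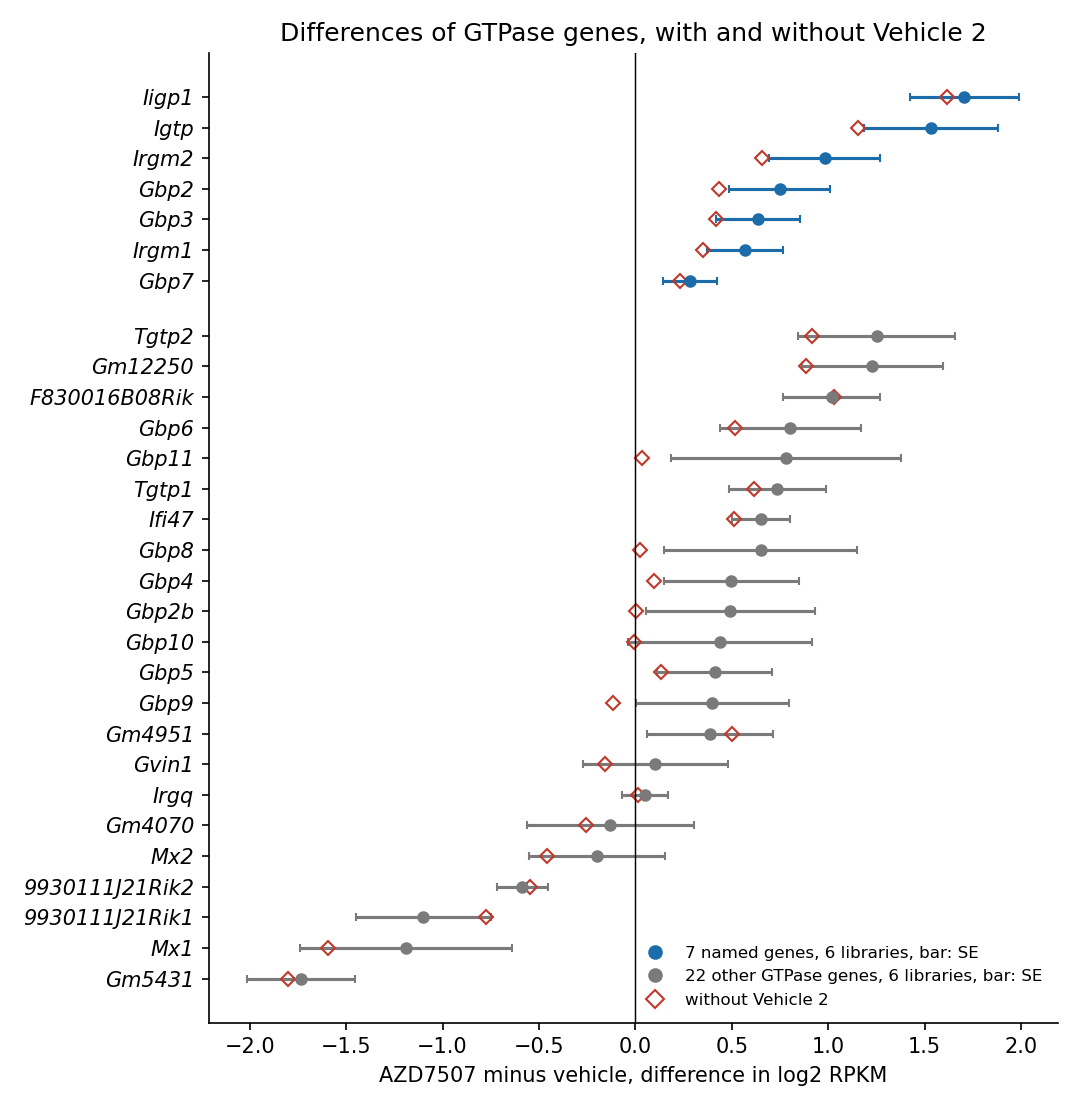
AZD7507 minus vehicle difference in log2 RPKM (horizontal axis) for the 7 genes in blue and 22 other GTPase genes in grey, with bars for the SE from limma and open diamonds for the fit without Vehicle 2. The 7 blue points lie between 0.28 and 1.71, while the diamonds of Gbp8, Gbp10, Gbp11 and Gbp2b lie close to 0.

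Promoter letters could be compared in 10 of these 22 genes. The repeated GAAA motif was present in 5 (Gbp2b, Gbp5, Tgtp1, Tgtp2 and Gm12250), each with a difference above 0 and with a median of 0.74. Of the 5 genes without it (Ifi47, Irgq, Gm5431, 9930111J21Rik1 and 9930111J21Rik2), 2 were above 0, with a median of -0.59. Over all genes 54.5% were above 0. Without Vehicle 2 the genes with the motif were at 0.0029 for Gbp2b, 0.13 for Gbp5, 0.62 for Tgtp1, 0.92 for Tgtp2 and 0.89 for Gm12250. These are counts of few genes, given with no test.

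Interferon gamma signalling genes lay on both sides of 0. Of 14 listed, 13 were measured, and no value was found for Ifng itself. The median difference was 0.018 (-0.10 without Vehicle 2 and -0.11 without AZD7507 3), with 7 above and 6 below 0. Limma called 1 lower (over all genes 0.337% were lower and 0.0184% higher). At an unadjusted p under 0.05 there were 1 higher and 2 lower in this list. Irf8, a transcription factor of macrophages and dendritic cells, fell from 2.40 ± 0.22 (SD, n = 3) to 0.70 ± 0.35 (SD, n = 3), by 1.71 on the log2 scale (SE 0.21, limma adjusted p 0.035). The Irf8 call was lost when any 1 library was left out (limma adjusted p 0.078 to 0.15), without both acinar-rich libraries (0.081) and with a constant variance prior (0.056).

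Ifngr1, a chain of the interferon gamma receptor, differed by -0.55 (limma adjusted p 0.29), and Irf1 by 0.27 (limma adjusted p 0.62).

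Type I interferon signalling genes showed small differences. Of 14 listed, 12 were measured and none was called by limma (1 lower at an unadjusted p under 0.05), with a median of 0.058 that was -0.08 without Vehicle 2, -0.03 without Vehicle 3 and -0.03 without AZD7507 3. The receptor kinase gene Tyk2 differed by -0.29 (limma adjusted p 0.53), the receptor gene Ifnar1 by -0.25 (limma adjusted p 0.67) and the transcription factor gene Irf3 by -0.24 (limma adjusted p 0.70).

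Other interferon-stimulated genes were measured for 32 of 33 listed. The median difference was 0.20, with 24 above 0, and limma called 1 lower and none higher (1 lower and 4 higher at an unadjusted p under 0.05). Ifi207, a DNA-binding protein gene of the HIN-200 family, fell from 1.92 ± 0.10 (SD, n = 3) to 0.86 ± 0.14 (SD, n = 3), by 1.06 on the log2 scale (SE 0.15, limma adjusted p 0.048). That call was lost when any 1 library was left out (limma adjusted p 0.11 to 0.20) and without both acinar-rich libraries (0.095). Isg15, a ubiquitin-like modifier gene, differed by 0.66 (limma adjusted p 0.37), the nucleic acid sensor gene Zbp1 by 0.76 (limma adjusted p 0.50) and Rtp4 by 0.76 (limma adjusted p 0.55). Without Vehicle 2 the median of the list was 0.11, without AZD7507 3 it was 0.089, and without both acinar-rich libraries 0.16.

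Genes whose products act with these GTPases showed small differences. The list holds autophagy conjugation genes, which help to target the GTPases to vacuoles, the autophagy receptor gene Sqstm1, the ubiquitin ligase gene Traf6 and the inflammasome genes Casp4 and Aim2, 14 genes in all and all measured. Limma called none (1 lower at an unadjusted p under 0.05), and the median difference was 0.024, against 0.025 over all genes. The median was -0.0019 without Vehicle 1, -0.022 without Vehicle 3, -0.049 without AZD7507 1 and -0.015 without AZD7507 3. Atg16l1 differed by -0.33 (limma adjusted p 0.36), Gabarapl2 by 0.21 (limma adjusted p 0.80) and Map1lc3a by 0.17 (limma adjusted p 0.80).

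**Figure D3:**
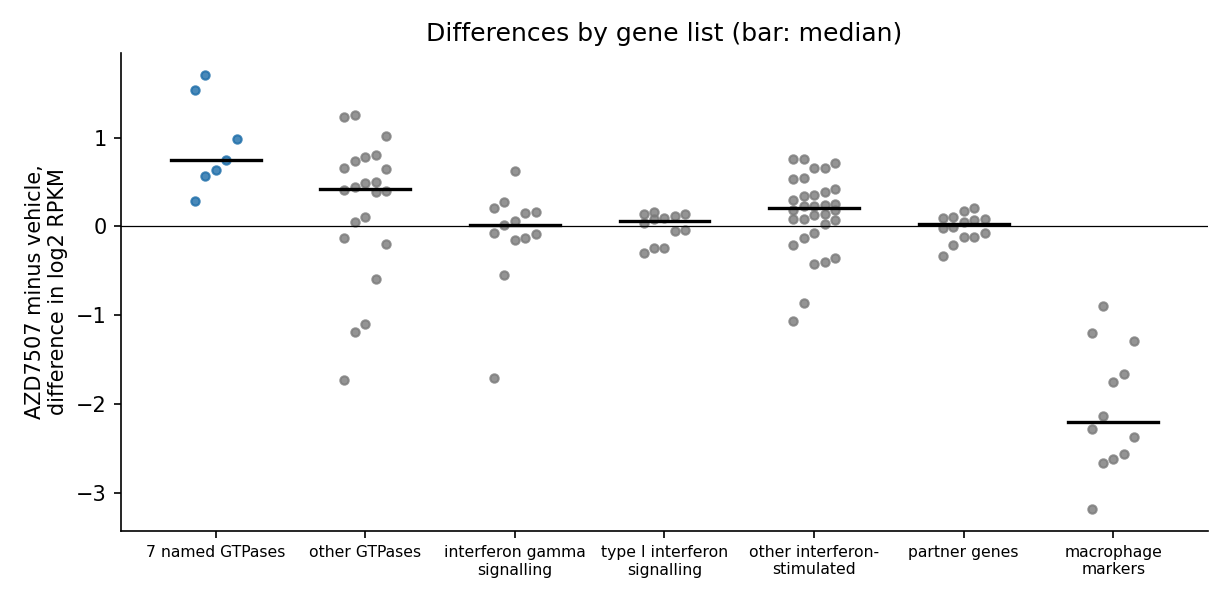
AZD7507 minus vehicle difference in log2 RPKM (vertical axis), each point a measured gene and each bar the median of its list. The medians are 0.75 for the 7 genes, 0.43 for other GTPases, 0.018 and 0.058 for interferon gamma and type I signalling, 0.20 for other interferon-stimulated genes, 0.024 for partner genes and -2.20 for macrophage markers.

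Markers of the cells that could make these transcripts moved in different ways. All 12 macrophage markers were lower with AZD7507 with no overlap of the groups, and limma called 6 (Csf1r, Adgre1, Cx3cr1, C1qa, C1qb and C1qc), beside 8.02% and 0.337% of all genes. With a constant variance prior Csf1r and C1qc did not pass (limma adjusted p 0.059 and 0.056). Adgre1, Cx3cr1, C1qa and C1qb did (limma adjusted p 0.030 to 0.048). Without both acinar-rich libraries none of the 6 passed (limma adjusted p 0.057 to 0.062). When 1 library was left out, Cx3cr1 and C1qa passed without AZD7507 1 (limma adjusted p 0.024 and 0.041), and otherwise none of the 6 passed. Their differences kept their sign. The summed level of the 12 markers was 437 to 710 RPKM with vehicle and 88.2 to 212 RPKM with AZD7507. The mean log2 RPKM of the macrophage list was 4.28, 4.90 and 4.20 in Vehicle 1, 2 and 3 and 2.81, 2.52 and 1.90 in AZD7507 1, 2 and 3. Within the AZD7507 group the tumour order of this list was the reverse of that of the 7 genes, and Vehicle 2 was highest for macrophage markers and lowest for the 7. Vehicle 1 was above Vehicle 3 in both, at 4.28 and 4.20 for macrophage markers and 3.17 and 2.66 for the 7.

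T and NK cells are the main makers of interferon gamma. Only 4 of their 16 markers (Cd3e, Cd4, Il2rb and Ccl5) were measured. Their summed level was 1.70 to 2.59 RPKM with vehicle and 1.35 to 2.55 RPKM with AZD7507, and 0 of 4 were called (1 lower at an unadjusted p under 0.05). Cd4 differed by -1.36 (limma adjusted p 0.19) at levels below 0, with no overlap of the groups, as for 8.02% of all genes downward. Cd3e, Il2rb and Ccl5 differed by -0.08, -0.14 and 0.30, with overlap. The 8 epithelial markers, all measured and all with a mean difference above 0, summed to 373 to 551 RPKM with vehicle and 517 to 613 RPKM with AZD7507. Of these 8 differences 6 were above 0 without Vehicle 2, without both acinar-rich libraries and with array weights. The 8 endothelial markers summed to 39.6 to 51.5 RPKM and 55.6 to 57.8 RPKM, but their mean log2 RPKM overlapped (1.26 to 1.57 and 1.40 to 1.52), the median difference was 0.031, and 3 of 8 were below 0. Limma called none of either list (2 epithelial genes were higher at an unadjusted p under 0.05). The part of cell composition in the GTPase differences was not tested.

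**Figure D4:**
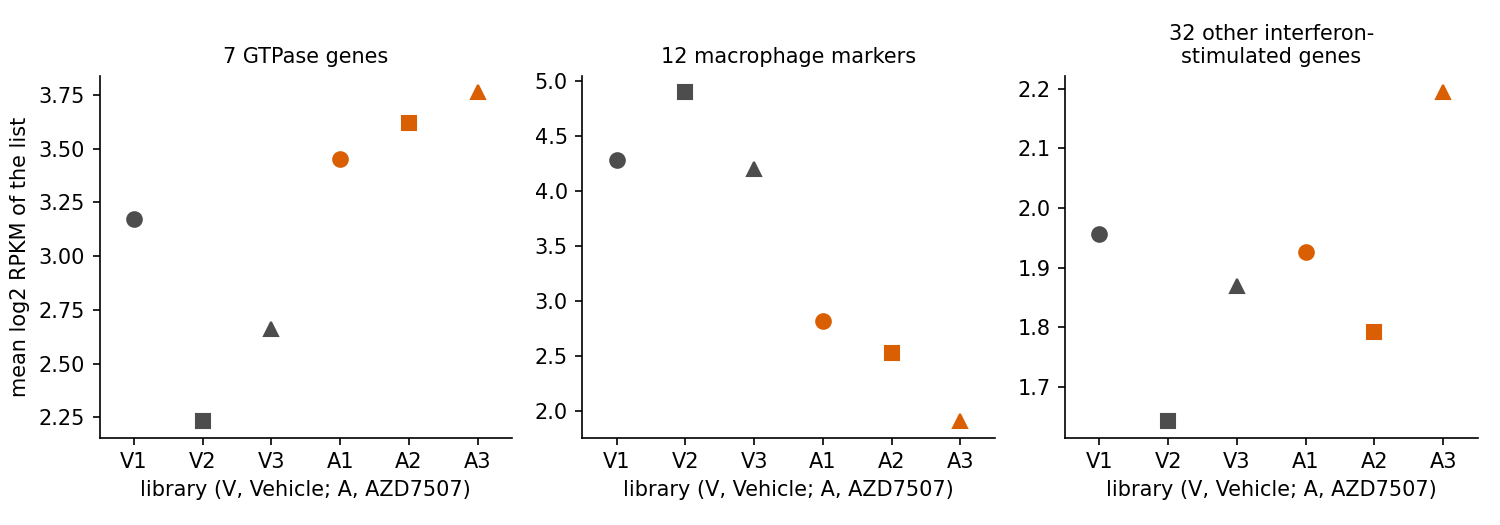
Mean log2 RPKM (vertical axes, each with its own range) of the 7 GTPase genes, 12 macrophage markers and 32 other interferon-stimulated genes in each tumour, V for vehicle and A for AZD7507. The GTPase mean runs from 2.23 in Vehicle 2 to 3.76 in AZD7507 3, and the macrophage mean from 4.90 in Vehicle 2 to 1.90 in AZD7507 3.

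The genes most like the 7 were sought by Pearson's r over 6 tumours with their mean log2 RPKM, among 11561 genes. The groups were separated on the mean of the 7 and the tumours share 1 normalization, so r is given as a description only. The first 5 were Pfdn5, a chaperone subunit gene, at r = 0.99, Triobp, an actin-bundling protein gene, at 0.99, Efcab14 at 0.99, the hexokinase gene Hk1 at 0.98 and the chromatin remodelling gene Smarcc1 at 0.98. With the group means removed, r was 0.95 to 0.99 for these 5, and without Vehicle 2 and Vehicle 3 it was 0.87 to 0.96. The 5 were picked for a high r over the same tumours, so neither range is further support for likeness. The differences of these 5 genes ran from 0.21 for Efcab14 to 0.50 for Pfdn5. They were smaller than those of the 7 GTPases other than Gbp7, which differed by 0.28. Among listed genes Tgtp2 had r = 0.98 at rank 9 and Ifi47 0.96 at rank 31.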

How the data were processed

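Bulk RNA-seq of total RNA depleted of ribosomal RNA, per the labels' protocols, was measured in 3 AZD7507 and 3 vehicle tumours. The authors deposited log2 RPKM values normalized with cqn, per the name of the table, a method that corrects for GC content and length and can equalise libraries, so a global change in RNA cannot be seen. BWA 0.7.15-r1140, HTSeq, mm10 and GRCm38 are named in the submitters' processing notes. The strand setting, annotation release and filter on low genes are not given in the sources used here. Symbols were found for 16306 of 16344 identifiers.

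Groups come from the treatment label. Replicates were numbered in record order. Deposited log2 values went untransformed into limma 3.58.1 in R 4.3.3 (trended, robust variance prior; 2-sided Benjamini-Hochberg adjusted p under 0.05 over all genes), after a check on simulated data. Differences are AZD7507 minus vehicle. The 7 genes and all lists were chosen with earlier results of these data known. Named genes are all measured GTPase genes, the called genes and the 3 with the smallest unadjusted p of each pathway list, the 5 most like genes with a mean log2 RPKM of at least 0 (unnamed models left out), measured neighbours and Csf1r. A gene that this rule took is left out of the text. Members of the marker lists, Irf1, and Tgtp2 and Ifi47 in the account of likeness, were named with their values known. Tried as alternatives were quantile normalization, median centring, array weights, a constant prior, a pseudocount of 0.1 or 1, only genes with a mean log2 RPKM of at least 0, each library left out, and both acinar-rich libraries left out.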

Additional observations from a re-analysis of the deposited data

How the results depend on the processing

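The 7 GTPase genes were higher with AZD7507 under each alternative (7 of 7). Quantile normalization and median centring could hardly alter this, because the libraries already shared their upper quartile and maximum. The small median of the interferon gamma signalling list turned to -0.10 without Vehicle 2, -0.11 without AZD7507 3, -0.05 without both acinar-rich libraries, -0.03 with array weights, -0.0078 with a pseudocount of 1 and -0.03 at the minimum mean log2 RPKM. That of the type I list turned to -0.08 without Vehicle 2, -0.03 without Vehicle 3 and -0.03 without AZD7507 3. That of the partner genes turned to -0.0019 without Vehicle 1, -0.022 without Vehicle 3, -0.049 without AZD7507 1 and -0.015 without AZD7507 3. Among other GTPase genes Gbp4, Gbp9, Gbp10, Gvin1, Irgq, Gm4070 and Mx2, none of them called, changed sign under 1 or more alternatives. The median of the 7 was 0.44 to 0.99 when 1 library was left out and 0.46 without both acinar-rich libraries. With a pseudocount of 1 the Iigp1 difference was 1.21. Over all genes, limma calls upward (3) became 1 with a constant variance prior, 14 with array weights, 0 when any 1 library was left out (257 to 1082 at an unadjusted p under 0.05) and 1 without both acinar-rich libraries. Calls downward (55) became 143 with array weights, 0 to 14 when 1 library was left out (606 to 1359 at an unadjusted p under 0.05) and 13 without both acinar-rich libraries. Among other GTPase genes the count (0) became 1 with a constant variance prior and 1 with array weights, Gm5431 in each case. The interferon gamma signalling call (1, Irf8) became 0 with a constant variance prior, 0 when any 1 library was left out and 0 without both acinar-rich libraries. The call among other interferon-stimulated genes (1, Ifi207) became 0 when any 1 library was left out and 0 without both acinar-rich libraries. The causes were not tested. Depth is unknown, and values below 0 may rest on few reads. No paired analysis was possible because the labels carry no replicate numbers that link tumours across groups.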
